A study of Mus musculus with 4 samples.

Results

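The 9 genes Reln, Calb2, Trp73, Ebf2, Ebf3, Lhx1, Lhx5, Ndnf and Nhlh2, known from Cajal-Retzius cells of the cortical marginal zone, were followed in embryonic mouse cortex with and without Cd93. They were chosen by name, each had 1 row in both deposited tables, and they are 9 of the 20385 genes that both tables list. All 9 passed the filter on low counts and were among the 16371 genes tested. RNA came from dissected cerebral cortex of C57BL/6 embryos at embryonic day 16 (E16), and the groups were wild type (WT, libraries WT 1 and WT 4) and Cd93 KO (libraries KO 5 and KO 6). No other allele or agent is named for either group, and how the knockout was made, in which cells Cd93 is lost and whether animals were pooled is not given in the sources used here. Nothing in the labels ties a library to an embryo of its own, so the spread between libraries, and every p-value built on it, may be technical. The design text speaks of triplicates, and 2 libraries per genotype were analysed here. Values given without library names follow the library order WT 1, WT 4, KO 5, KO 6. KO 6 and WT 1 share 1 deposited table (table A), and KO 5 and WT 4 the other (table B).

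Cajal-Retzius cells are among the first neurons of the cortex. They are born at the edges of the cortical sheet, in the cortical hem, the pallial septum and the pallial-subpallial boundary, and spread under the meninges over the whole surface. They secrete reelin, which binds the receptors encoded by Vldlr and Lrp8 on migrating neurons and acts through the adaptor encoded by Dab1, and without it the cortical layers are misplaced. At this stage cells of the marginal zone are a small part of the cortex, and none of the 9 genes is theirs alone: interneurons can carry Reln, Calb2 and Ndnf, and thalamic and hypothalamic neurons Calb2, Lhx1 and Lhx5. In bulk tissue, fewer cells of a type and less RNA per cell cannot be told apart.

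Promoters are shown for Reln, the member with the most counts. They are also shown for Trp73, Ebf3 and Nhlh2, the members with a promoter whose KO libraries both lay above both WT libraries. RefSeq gave promoters of 300 bases for 5 of the 9 genes (Reln, Trp73, Ebf3, Lhx1 and Nhlh2, build GRCm38.p6), from 250 bases before the start to 50 after it, on the gene's strand. Trp73 had 2 of them, because a transcript that lacks the N-terminal activation domain begins at an internal start. Counts per gene do not separate these 2 starts. Capitals mark an E-box, the motif bound by helix-loop-helix factors, of the letters CAGCTG or CAGATG on either strand.
Reln, chr5:22344656-22344955, minus strand: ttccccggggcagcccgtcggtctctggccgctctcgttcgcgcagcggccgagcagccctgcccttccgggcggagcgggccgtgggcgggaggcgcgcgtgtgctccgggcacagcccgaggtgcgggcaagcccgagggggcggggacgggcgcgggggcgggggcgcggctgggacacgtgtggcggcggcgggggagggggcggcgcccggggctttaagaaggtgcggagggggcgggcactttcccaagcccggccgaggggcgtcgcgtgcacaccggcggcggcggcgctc
Trp73, upstream start, chr4:154139826-154140125, minus strand: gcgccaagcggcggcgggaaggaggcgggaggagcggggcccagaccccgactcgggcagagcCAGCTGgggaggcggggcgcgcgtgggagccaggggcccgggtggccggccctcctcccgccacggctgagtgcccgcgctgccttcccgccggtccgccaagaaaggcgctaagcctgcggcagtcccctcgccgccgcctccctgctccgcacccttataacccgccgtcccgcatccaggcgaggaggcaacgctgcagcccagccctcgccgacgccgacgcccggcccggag
Trp73, internal start, chr4:154097124-154097423, minus strand: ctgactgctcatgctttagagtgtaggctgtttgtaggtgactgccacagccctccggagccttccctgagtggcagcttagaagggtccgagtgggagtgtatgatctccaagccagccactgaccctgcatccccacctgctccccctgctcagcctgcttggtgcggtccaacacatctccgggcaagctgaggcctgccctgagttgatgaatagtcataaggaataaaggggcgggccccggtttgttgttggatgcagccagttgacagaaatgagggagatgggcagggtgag
Ebf3, chr7:137314396-137314695, minus strand: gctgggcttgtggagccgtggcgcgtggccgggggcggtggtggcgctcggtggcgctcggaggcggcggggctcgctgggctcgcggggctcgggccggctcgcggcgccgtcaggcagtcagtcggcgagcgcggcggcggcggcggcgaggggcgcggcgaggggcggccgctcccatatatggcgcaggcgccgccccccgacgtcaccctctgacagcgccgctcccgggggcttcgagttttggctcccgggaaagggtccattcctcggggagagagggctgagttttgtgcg
Nhlh2, chr3:102009895-102010194, plus strand: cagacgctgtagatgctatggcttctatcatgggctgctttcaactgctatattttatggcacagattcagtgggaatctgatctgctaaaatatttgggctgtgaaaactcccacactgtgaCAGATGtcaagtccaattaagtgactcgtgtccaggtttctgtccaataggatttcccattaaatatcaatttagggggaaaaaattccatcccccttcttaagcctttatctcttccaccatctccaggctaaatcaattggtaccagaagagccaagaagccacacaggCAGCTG

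The promoters differed in base composition. Their GC content was 80.7% for Reln, 77.7% for the upstream Trp73 start, 77.0% for Ebf3, 65.7% for Lhx1, 57.7% for the internal Trp73 start and 43.3% for Nhlh2, against a median of 52.7% over 32851 promoters of the same length. The window at Nhlh2 held 2 CG pairs and that at Reln 47, against a median of 7. CAGCTG stood in 2 of the 6 member promoters (Nhlh2 and the upstream Trp73 start) and in 16.3% of all promoters. CAGATG stood in 1 (Nhlh2) and in 17.2% of all. Neither TCCC and GGGA with any 2 bases between them, a motif of EBF factors, which 0.904% of all promoters held, nor TAATTA, a motif of LIM homeodomain factors, which 5.29% held, was found in the 6 windows on either strand.

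The 4 libraries held 16318317 to 17586157 counts. Counts in the text are raw, and CPM is the usual depth-scaled count, adjusted by the TMM factors of edgeR, which were 0.994 to 1.01. For Cd93 the WT libraries held 680 and 409 counts and the KO libraries 111 and 99, so the order follows the labels. The log2 fold change of Cd93 was -2.32, and the edgeR test over all 4 libraries did not call it (adjusted p 0.2105), so at this replication even a difference of that size between the genotypes can miss the threshold. Markers of cortical projection neurons and progenitors, such as Neurod6 with 1422, 1542, 1527 and 1667 CPM in library order, were abundant in all 4. WT 1 stood apart in markers of other tissues: its 12 meningeal genes summed to 619 CPM against 92.9 to 131 CPM in the other 3 libraries, and its 16 interneuron genes to 1130 CPM against 570 to 799 CPM. Estimates without WT 1 are therefore given for the median of the 9 genes and for Calb2, Nhlh2, Lhx1 and Ebf2.

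Reln was by far the most abundant of the 9 in counts, and the most abundant per kilobase of the longest transcript. Levels between genes were set per kilobase of the longest GENCODE transcript. On that scale (CPM per kilobase) Reln, the secreted glycoprotein itself, was at 33.9 ± 1.74 in WT and Calb2, the calcium-binding protein calretinin, at 13.3 ± 3.50 (SD, n = 2 each). Nhlh2, a helix-loop-helix transcription factor, followed at 9.28 ± 2.45, Trp73, the p53 relative p73, at 5.75 ± 0.0463, and Ndnf, a secreted neurotrophic factor, at 3.92 ± 0.0674. The LIM homeodomain factor Lhx5 was at 2.61 ± 0.291, the EBF factor Ebf3 at 1.92 ± 0.0503, Lhx1, the nearest relative of Lhx5, at 1.60 ± 0.376, and Ebf2 at 0.216 ± 0.0456. The WT libraries of Calb2 and Nhlh2 overlapped, and those of the other neighbours in this order did not. The order in KO was the same, with Reln at 36.4 ± 3.34 and Calb2 at 22.4 ± 1.59 (SD, n = 2 each), and no neighbours overlapped. The length matters for 2 pairs: over the summed length of all annotated exons, Calb2 stood at 18.3 and Reln at 18.0 CPM per kilobase in KO, and Lhx1 at 1.51 and Ebf3 at 1.04 in WT.

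**Figure D1:**
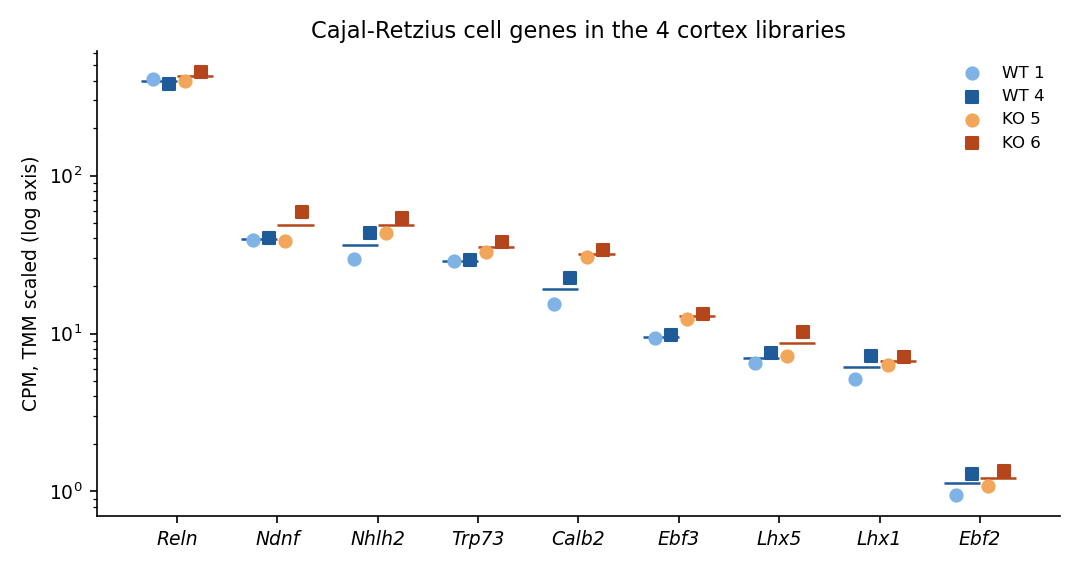
Level of each of the 9 genes (CPM, log axis) in the 4 libraries. Points are libraries and short lines the mean of each genotype (n = 2 each). The KO libraries lie above both WT libraries in Calb2, Trp73, Ebf3 and Nhlh2, and the genotypes overlap in the other 5 genes.

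Compared between genotypes, all 9 genes had a log2 fold change above 0, KO over WT, and none passed the test. Their median log2 fold change was 0.30, against -0.003 over all 16371 genes tested, of which 49.0% lay above 0. After Benjamini-Hochberg adjustment over all tested genes, the quasi-likelihood test of edgeR called 0 of the 9, where 0% of all genes were called higher and 0.0122% lower, and the adjusted p of each member was 0.9999. At an unadjusted p under 0.05 edgeR kept 1 member, Calb2, where 1.94% of all genes had such a p. DESeq2 called 0 members after adjustment, where it called 0.00981% of all genes higher and 0.0343% lower, and limma-voom called 0 members, with the same shares as edgeR. Without a filter on low counts edgeR called 0 members, 0% of genes higher and 0.00981% lower, and with the deposited table as a block 0 members, 0.0122% higher and 0.165% lower. In 4 of the 9 (Calb2, Trp73, Ebf3 and Nhlh2) both KO libraries were above both WT libraries, where 11.5% of all genes were. The size of the median rested on KO 6, the highest of the 4 libraries in 8 of the 9 genes, where 25.9% of all genes had it highest. Without KO 6 the median was 0.05 with 7 of 9 above 0, and without WT 1 it was 0.20 with 7 of 9 above 0. Without KO 5 it was 0.48 and without WT 4 0.40, with 9 of 9 above 0 in both. In these 4 fits the lone library of a genotype is assumed to vary like the other pair. They called 0 members, except for Calb2 without WT 4. Over all genes the shares called higher and lower were 0.053% and 0.206% without WT 1, 0.304% and 1.52% without WT 4, 0% and 0.0291% without KO 5, and 0.0117% and 0.035% without KO 6.

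**Figure D2:**
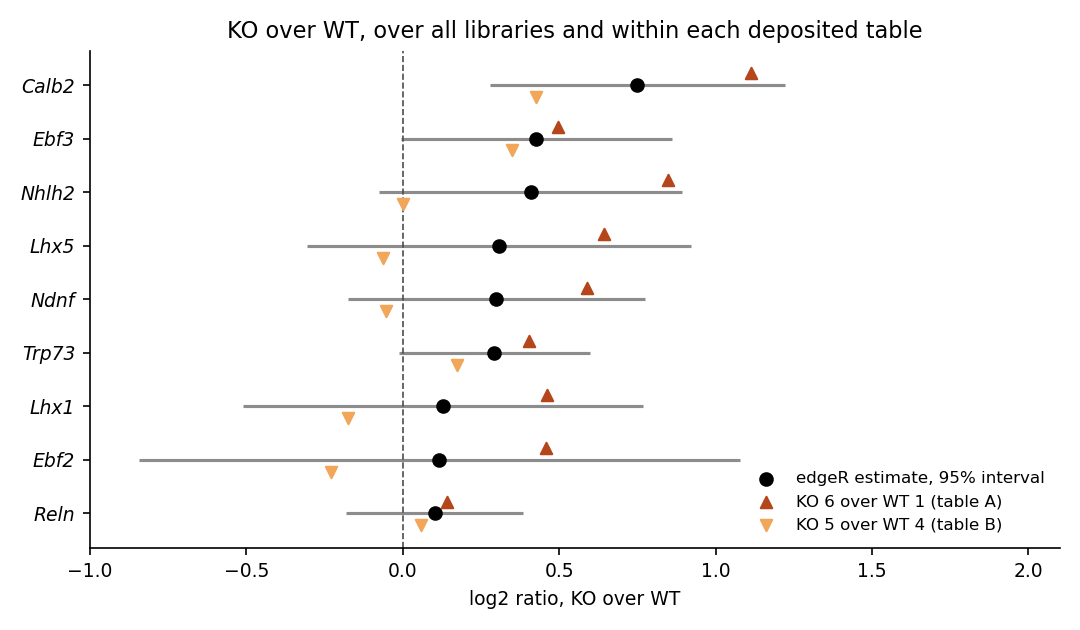
Log2 ratio of KO to WT for each gene. Black points are edgeR estimates over the 4 libraries with 95% intervals, and triangles are the ratios within table A (KO 6 over WT 1) and table B (KO 5 over WT 4). All 9 genes lie above 0 in table A and 5 of 9 in table B.

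Among the genes of secreted and calcium-binding proteins, Reln overlapped between the genotypes. Its 4 libraries held 7314, 6516, 6984 and 7366 counts, or 412, 383, 399 and 454 CPM. KO 6 was the highest and WT 4 the lowest, and KO 5 lay between the WT libraries. KO and WT differed by 0.10 on the log2 scale (SE 0.12, 95% interval -0.18 to 0.39, edgeR adjusted p 0.9999), and 0.01 without KO 6.

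Calb2 had the largest difference of the 9. Calretinin marks many, but not all, Cajal-Retzius cells. Its 275, 384, 532 and 545 counts in library order were 15.5, 22.6, 30.4 and 33.6 CPM. Both KO libraries were above both WT libraries, and the KO libraries were closer to each other than the WT libraries. The means were 19.0 ± 5.01 CPM for WT and 32.0 ± 2.28 CPM for KO (SD, n = 2 each), 0.75 apart on the log2 scale (SE 0.20, 95% interval 0.28 to 1.22), which did not pass (edgeR adjusted p 0.9999, unadjusted p 0.00749, the p of rank 25 among 16371). Within table A the log2 ratio was 1.11 and within table B 0.43. With a lone WT library left, the log2 fold change of Calb2 was 1.05 without WT 4 and 0.50 without WT 1. Over all alternatives its adjusted p ran from 0.00495 to 1.0.

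Ndnf stood out in 1 library. Its counts were 696, 683, 678 and 956 in library order, or 39.2, 40.1, 38.7 and 58.9 CPM. WT 1, WT 4 and KO 5 were nearly alike and KO 6 alone was higher. The difference of 0.30 (log2, SE 0.20, edgeR adjusted p 0.9999) turned to -0.03 without KO 6. The ratio of KO 6 to KO 5, both of the same genotype, was 0.60 on the log2 scale, and that of WT 1 to WT 4 was -0.03.

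Of the transcription factor genes, Trp73 and Ebf3 had WT libraries that lay close together. Trp73 is carried mainly by Cajal-Retzius cells from the hem and septum and is needed for their survival. Its counts were 512, 496, 576 and 619 in library order, or 28.8, 29.1, 32.9 and 38.2 CPM. Both KO libraries were above the WT pair, by 0.29 on the log2 scale (SE 0.13, 95% interval -0.01 to 0.60, edgeR adjusted p 0.9999). Ebf3 had 167, 166, 218 and 216 counts, or 9.40, 9.75, 12.4 and 13.3 CPM. Its libraries of 1 genotype were nearly equal and the genotypes did not overlap, at 0.43 on the log2 scale (SE 0.18, 95% interval -0.01 to 0.86, edgeR adjusted p 0.9999). Over the 4 fits that leave out 1 library the Ebf3 value kept to 0.38 to 0.48, while that of Trp73 ran from 0.19 to 0.40.

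Nhlh2 was also higher in both KO libraries, but KO 5 was level with WT 4. Its counts were 529, 739, 761 and 871, or 29.8, 43.4, 43.4 and 53.7 CPM. KO and WT differed by 0.41 on the log2 scale (SE 0.20, edgeR adjusted p 0.9999), 0.85 within table A and 0.001 within table B. Without WT 1 the difference was 0.16. The 2 WT libraries differed by -0.54 (WT 1 over WT 4), more than the genotypes did.

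The LIM homeodomain pair and Ebf2 did not separate the genotypes. Lhx1 had 91, 122, 111 and 115 counts, with WT 4 the highest, and differed by 0.13 (log2, SE 0.27, edgeR adjusted p 0.9999). Lhx5, which acts beside Lhx1 in forebrain patterning, had 115, 129, 127 and 165 counts and differed by 0.31 (log2, SE 0.26, edgeR adjusted p 0.9999), by 0.05 without KO 6. Ebf2 was the scarcest, with 17, 22, 19 and 22 counts, and differed by 0.12 (log2, SE 0.40, 95% interval -0.84 to 1.08). A difference of that size was not detectable with these counts and 2 libraries per genotype. Without WT 1 the sign turned for Lhx1 (-0.09) and Ebf2 (-0.08), and without KO 6 for Ebf2 (-0.05). The antisense gene Gm27199, with 16 to 23 counts a library, overlaps Lhx5, and since no source used here says whether reads were counted by strand, its reads cannot be told apart from those of Lhx5.

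**Figure D3:**
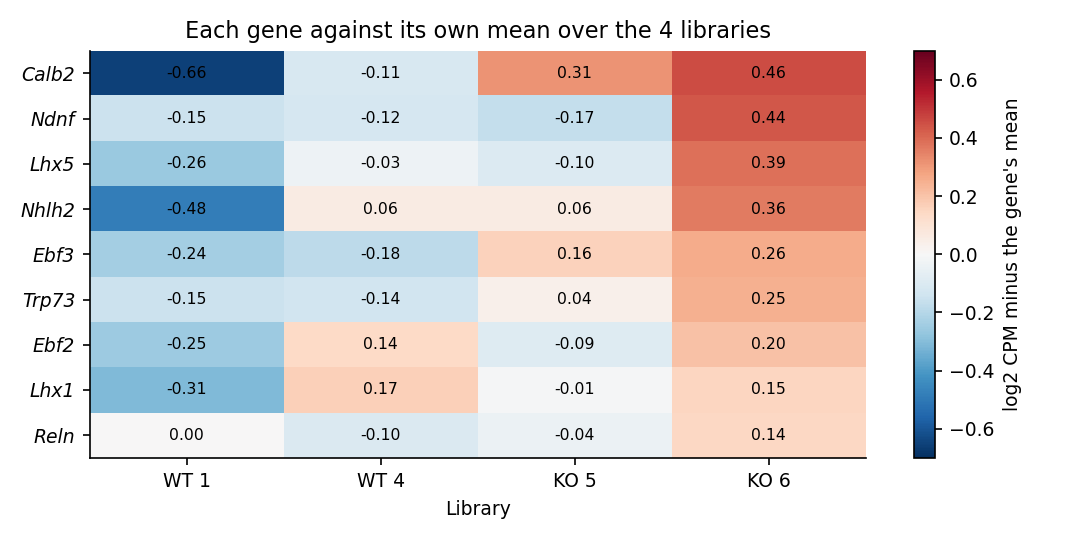
Log2 CPM of each gene minus its own mean over the 4 libraries. Columns are libraries, rows are genes ordered by their value in KO 6, and red is above and blue below the gene's mean. KO 6 is positive in all 9 genes and WT 1 is negative in 8 of them, with Reln at 0.00.

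Read library by library, the 9 genes also differed within each genotype. WT 1 was the lowest library in 7 of the 9 genes (where 26.0% of all genes had it lowest) and lower than WT 4 in 8, with a median log2 ratio of -0.22. KO 6 was above KO 5 in 9 of 9, with a median of 0.21. Within both tables KO was above WT in 5 of the 9, where 22.3% of all genes were. The differences within a genotype were of the same order as the 0.30 between genotypes. Over the 4 pairs of a KO and a WT library, the median was 0.50 for KO 6 over WT 1, 0.39 for KO 6 over WT 4, 0.19 for KO 5 over WT 1 and 0.001 for KO 5 over WT 4. Over all tested genes the medians of these 6 pairs lay between -0.008 and 0.005.

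Measured against Reln in the same library, Calb2 differed most between the genotypes among the other 8 genes. Its CPM was 3.76% and 5.89% of that of Reln in the WT libraries, and 7.62% and 7.40% in the KO libraries. Both KO values were above both WT values. Ebf3 stood at 2.28% and 2.55% in WT and at 3.12% and 2.93% in KO, and Trp73 at 7.0% and 7.61% against 8.25% and 8.40%, in the same order. Both pairs were again apart, by less than in Calb2. Nhlh2 overlapped, at 7.23%, 11.3%, 10.9% and 11.8%, and so did Ndnf, at 9.52%, 10.5%, 9.71% and 13.0%. Lhx1 (1.24%, 1.87%, 1.59% and 1.56%) and Lhx5 (1.57%, 1.98%, 1.82% and 2.24%) overlapped as well. Ebf2 also overlapped, at 0.232%, 0.338%, 0.272% and 0.299%. The share of all genes whose ratio to Reln lay apart between the genotypes was not computed. Reln made up 75.3%, 70.4%, 69.8% and 67.7% of the summed CPM of the 9, so a sum over the group mostly repeats Reln. Without Reln the other 8 summed to 135, 161, 173 and 216 CPM in the same order.

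In the authors' deposited table A, 7 of the 9 genes were higher in KO at a deposited adjusted p under 0.05, where 7.94% of its genes were. In the authors' deposited table B this held for 2 (Reln and Calb2), where 6.34% were. The authors' deposited tables mark 1 member as significant, Calb2 in table A with a fold change of 2.14, where 1.08% of genes carry the mark as higher, and none in table B, where 0.715% do. The deposited p-values compare 1 library with 1 library, so they hold no spread between libraries of a genotype. In the authors' deposited table A, Reln has an adjusted p of 8.43e-06 at a fold change of 1.09, and in the authors' deposited table B 0.0449 at 1.05.

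Other genes known from Cajal-Retzius cells were followed beside the 9. Of 7 (Cacna2d2, Cxcr4, Tbr1, Mab21l1, Car10, Barhl2 and Lhx1os), 7 had a log2 fold change above 0 and 0 passed the edgeR test, with a median of 0.13, which was 0.25 within table A and -0.01 within table B. Cxcr4, the receptor for the meningeal chemokine that holds Cajal-Retzius cells at the surface, had 895, 1263, 1286 and 1181 counts and differed by 0.23 (log2, SE 0.18). WT 1 alone was low, and the other 3 libraries were close. Cacna2d2, a calcium channel subunit gene, had 0.13 (SE 0.14), and Barhl2, a homeobox gene, had 0.35 (SE 0.37) on 23 to 40 counts a library. None of the 3 passed the edgeR test.

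The receptors and relays of the reelin signal did not pass the edgeR test either. Of 12 genes of the pathway, 9 were above 0 and 3 below, 0 were called, and the median log2 fold change was 0.04, which was 0.08 within table A and -0.03 within table B. The receptor gene Vldlr had 1184, 1308, 1280 and 1385 counts and differed by 0.14 (log2, SE 0.13). Crk, an adaptor that binds phosphorylated DAB1, was at -0.12 (SE 0.10), and Cul5, part of the ubiquitin ligase that removes it, at 0.11 (SE 0.10). Dab1 was at 0.17 and the receptor gene Lrp8 at 0.06.

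Relatives of the members did not share one direction. Of 5 tested, 3 were above 0 and 2 below, with a median of 0.02, which was -0.16 within table A and 0.01 within table B. Ebf1, which in the forebrain marks striatal neurons rather than Cajal-Retzius cells, had 782, 381, 140 and 283 counts. Both KO libraries were below both WT libraries, at -1.39 on the log2 scale (SE 0.43, edgeR adjusted p 0.9999), opposite in sign to Ebf2 and Ebf3. Calb1, the calbindin relative of calretinin, was at -0.31 (SE 0.24) and Nhlh1 at 0.19 (SE 0.24).

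Genes of the birthplaces differed among themselves. Of 9 tested cortical hem genes, 8 were above 0 and 1 below, the median being 0.93 on the log2 scale, and 0 were called by edgeR. Rspo2, an enhancer of Wnt signalling, had 80, 172, 275 and 196 counts (log2 fold change 0.93, SE 0.38), and Lmx1a, a hem transcription factor, 5, 28, 47 and 40 (1.42, SE 0.67). Bmp6 went the other way with 221, 34, 53 and 28 counts (-1.60, SE 0.79). In the summed level of the 9 hem genes, 60.3, 88.9, 107 and 86.7 CPM, KO 5 was the highest library, whereas KO 6 was the highest for the 9 Cajal-Retzius genes. The hem median was 1.65 within table A and 0.54 within table B, and for WT 1 over WT 4 it was -1.80. Of 6 tested genes of the pallial septum and the pallial-subpallial boundary, 4 were above 0 and 2 below (median 0.05, but -0.16 within table A and 0.20 within table B), with Fgf17 at -1.16 (SE 0.42), Zic1 at 0.27 (SE 0.13) and Sfrp2 at 0.16 (SE 0.23).

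**Figure D4:**
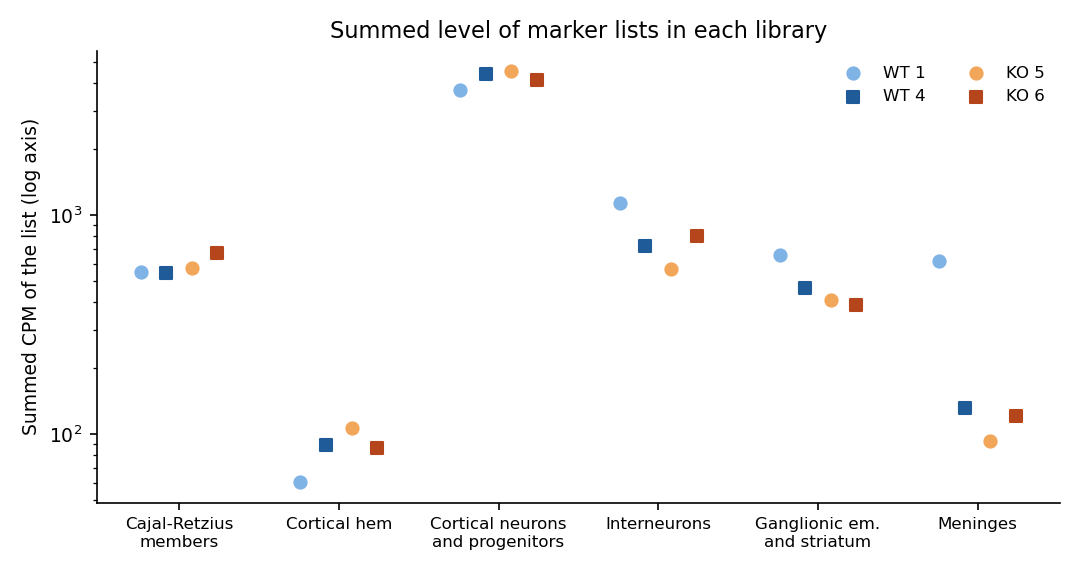
Summed CPM (log axis) of the 9 Cajal-Retzius genes and of 5 marker lists in each library. WT 1 has the lowest hem sum, 60.3 CPM, and the highest meningeal sum, 619 CPM, while the sums of the 9 genes run from 544 CPM in WT 4 to 670 CPM in KO 6.

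Other cells that carry some of the 9 genes were counted beside them. Of 16 interneuron genes, 3 were above 0 and 13 below, the median being -0.40 (log2). Their sum was 1130, 725, 570 and 799 CPM. Within KO, the interneuron sum was higher in KO 6 than in KO 5, as were all 9 members. Within WT, the interneuron sum was higher in WT 1 than in WT 4, whereas 8 of the 9 members were lower in WT 1. Dlx5 was at -1.22 (SE 0.30), Nkx2-1 at -3.14 (SE 0.88) and Dlx2 at -1.21 (SE 0.39), and none of them passed the edgeR test. These 3 are also genes of the ganglionic eminences. Genes of interneurons that have reached the cortex were nearer to 0 or above it, with Lhx6 at -0.02 (SE 0.12), Erbb4 at -0.03 (SE 0.22), Sst at 0.10 (SE 0.17), Npy at 0.19 (SE 0.35) and Prox1 at 0.45 (SE 0.18). Of 10 ganglionic eminence and striatum genes 10 were below 0 (median -1.55), led by Zfp503 at -2.34 (SE 0.66), Drd2 at -1.72 (SE 0.51) and Six3 at -2.90 (SE 0.87). Their sum was 659, 465, 409 and 387 CPM. The part of these cells in the levels of the 9 genes was not tested.

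Thalamic markers differed in level. Gbx2, a defining gene of the thalamus, had 1 to 3 counts a library, Tcf7l2, another gene of thalamic neurons, had 130, 98, 109 and 102 (log2 fold change -0.06, SE 0.25), and Foxb1, Shox2 and Six6 were not listed in both tables. Of 4 tested genes of that list 3 were above 0 and 1 below (median 0.29). Lhx9 was at 0.57 (SE 0.44), Otx2 at 0.38 (SE 0.34) and Lhx2, which cortical progenitors also carry, at 0.19 (SE 0.25). For the olfactory bulb, whose projection neurons can carry Reln and Lhx5, Tbx21 had 1 to 5 counts a library, and the 2 tested genes, Eomes and Doc2g, were at 0.20 (SE 0.24) and 0.06 (SE 0.20). Eomes is also a gene of cortical intermediate progenitors.

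Meningeal genes were highest in WT 1. Of 11 tested, 11 were below 0 with a median log2 fold change of -2.57, which was -3.17 within table A, the table with WT 1, and -1.16 within table B. Col1a1, a fibrillar collagen gene, had 1454, 384, 157 and 140 counts (log2 fold change -2.57, SE 0.56), Col3a1 2795, 283, 119 and 175 (-3.31, SE 0.95), and Lum 244, 42, 8 and 23 (-3.12, SE 0.89). WT 1, with the highest counts of all 3, was the lowest library in 7 of the 9 Cajal-Retzius genes. The part of meningeal tissue in the levels of the 9 genes was not tested. Choroid plexus genes were scarce, with a sum of 17.9, 4.99, 6.11 and 18.5 CPM in the same order, 2 of 4 tested above 0 (median -0.12, but -0.42 within table A and 0.35 within table B). Among them Aqp1 was at -1.08 (SE 0.47), Otx2 at 0.38 (SE 0.34) and Clic6 at -0.62 (SE 0.63).

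Markers of the cortex proper and the subplate were set beside them. Of 10 genes of cortical projection neurons and progenitors 8 were above 0 and 2 below, the median being 0.15 on the log2 scale, and 0 were called. Bcl11b was at -0.31 (SE 0.11) and Emx1 at 0.36 (SE 0.28). Their sum was 3712 CPM in WT 1 and 4140 to 4533 CPM in the other 3 libraries, so WT 1 was the lowest in this sum. The summed CPM of the 9 Cajal-Retzius genes was 547 in WT 1 and 544 in WT 4, the lowest. Gene by gene, WT 1 was the lowest in 7 of these 9. Of 4 tested subplate genes 2 were above 0 and 2 below (median -0.08, but 0.07 within table B), with Moxd1 at -1.19 (SE 0.61), Tmem163 at 0.22 (SE 0.19) and Nr4a2 at -0.32 (SE 0.33).

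Genes whose pattern over the 4 libraries was nearest to the mean of the 9 were sought among 11752 genes with at least 5 CPM on average, by the Euclidean distance of centred log2 CPM. The nearest were Arhgef26 (distance 0.0398), Dtna (0.0399), Aamdc (0.0411), Mum1l1 (0.0419) and Ppp2r2c (0.0582). Arhgef26, for example, had 23.7, 27.1, 28.6 and 34.3 CPM. Of the genes that are no members, 52 lay nearer to that mean than the nearest member did, at 0.148, and 385 nearer than the median member, at 0.246. With Pearson's r over the 4 libraries, 0 of these 5 names returned, and 260 genes (2.21%) had an r of at least 0.95. For Reln alone the nearest were Sccpdh, Mrps28, Tmem242, Zfp330 and Chka, at distances of 0.0166 to 0.0241. With 4 libraries such likeness is a description only.

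In the annotation carried by the deposited tables, several members share terms. The choice as known Cajal-Retzius genes and this annotation can rest on the same earlier knowledge, so the shares are a description only. The term nucleus was given to 7 of the 9, all but Reln and Ndnf, and to 28.7% of the tested genes. Positive regulation of DNA-templated transcription was given to 5 (Ebf2, Ebf3, Lhx1, Lhx5 and Trp73), and to 2.79% of the tested genes. Hippocampus development was given to Lhx5, Reln and Trp73, and to 0.397%. Reln and Ndnf, the 2 secreted products, share the terms for neuron migration and extracellular matrix. By position the 9 genes lie on 8 chromosomes, with only Reln (21884454 to 22344702) and Lhx5 (120431699 to 120441223) on the same one, chromosome 5, in the positions as deposited. The others are Calb2 on chromosome 8 (110137502 to 110168210), Trp73 on 4 (154056253 to 154140208), Ebf2 on 14 (67233292 to 67430918), Ebf3 on 7 (137193673 to 137314445), Lhx1 on 11 (84518284 to 84525535), Ndnf on 6 (65671590 to 65712326) and Nhlh2 on 3 (102010076 to 102015492).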

How the data were processed

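Whole counts per Ensembl gene were made by the authors and deposited in 2 tables, each with 1 KO and 1 WT library. Tools named in the submitters' processing notes are TopHat2 2.0.12, Bowtie2 2.2.3 and HTSeq 0.6.0, with the build mm9, without roles or strand setting, but the deposited positions are those of GRCm38: 91.6% of the shared genes found in GENCODE M21 have its start and end. The deposited CPM, the deposited fold change (a ratio of KO to WT), its log2, and each deposited p-value, raw or adjusted, are the authors' values for 1 library against 1 library. The 20385 genes in both tables were joined, and 2943 genes in 1 table only were left out.

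Counts were fitted in R 4.3.3 with edgeR 4.0.16 (filterByExpr, TMM, glmQLFit and glmQLFTest, two-sided, Benjamini-Hochberg, threshold 0.05) with 2 libraries per genotype. An exact permutation test of 2 against 2 cannot give a p under 0.333 and was not used. DESeq2 1.42.0, limma 3.58.1 (voom), other scalings, no filter, the deposited table as a block and leaving out each library were alternatives. On simulated counts of the KO against WT comparison, edgeR recovered 123 of 200 genes changed 2-fold over 16086 genes with 14 false calls, and 191 of 200 changed 4-fold over 16112 genes with 16 false calls, a larger false share than the threshold of 0.05 in both. The simulated counts were drawn for each gene separately around a mean common to the libraries. They lack shifts shared by many genes of a library, such as those of WT 1, so the recovered shares may not hold for the real libraries. Log2 ratios between libraries used a prior count of 2. Replicate libraries were distinct (chi-square over degrees of freedom 14.6 for WT, 15.8 for KO). One count equalled 0.0569 to 0.0613 CPM. Intervals do not cover PCR duplication, since no molecular identifiers were counted. Python 3.11.15 (pandas 2.3.3, matplotlib 3.10.9, scipy 1.17.1) joined the tables and drew the plots. The 9 genes and 13 further lists were chosen with earlier results of these data known. Named are the 9 genes, up to 3 genes of smallest edgeR p per list, the 5 nearest in pattern and Cd93. A gene that this rule names is not reported here. Names outside that rule were added after their values were seen. They are Neurod6, Dab1, Lrp8, Gbx2, Tbx21, Tcf7l2, Lhx6, Erbb4, Sst, Npy, Prox1, overlapping and full list members.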

Additional observations from a re-analysis of the deposited data

How the results depend on the processing

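All but 4 of the 90 estimates for the 9 genes from the 10 alternative fits were above 0. Below 0 were Ebf2 at -0.084 and Lhx1 at -0.094 without WT 1, and Ebf2 at -0.047 and Ndnf at -0.030 without KO 6. Leaving out each library in turn, Ebf2 ran from -0.084 to 0.352, Lhx1 from -0.094 to 0.395 and Ndnf from -0.030 to 0.573. Leaving out 1 library moved the median of the 9 from 0.30 to between 0.050 and 0.477, the number above 0 to between 7 and 9, the number called higher to 0 or 1 (Calb2 without WT 4), and the genes called over the whole table to 0 to 52 higher and 5 to 260 lower, against 0 and 2 with all 4 libraries. Within table A the median was 0.50, and within table B 0.0010, where 5 of the 9 were above 0 (a count added after seeing the data). DESeq2 called 2 genes higher and 7 lower, and edgeR with the deposited table as a block 2 higher and 27 lower, with none of the 9 among them. Cd93, not called with all 4 libraries (edgeR adjusted p 0.2105), was called by 4 of the 10 alternatives (DESeq2, the table as a block, without WT 1 and without WT 4), with log2 fold changes of -2.61 to -1.95 over the alternatives. With all 4 libraries, the other tools, scalings, the block and no filter on low counts gave a median of 0.29 to 0.31. By Pearson correlation 0 of the 5 nearest genes were the same. The only pairing the files give is that by deposited table, used as the block above, under which Calb2 was at 0.77 (edgeR adjusted p 0.2357). The labels give the genotypes no library number in common. With 17 to 22 counts, depth limits Ebf2.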
